A study of Mus musculus with 4 samples.

Results

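Genes of protein folding and quality control in the endoplasmic reticulum (ER) were measured in single aortic smooth muscle cells. The cells came from control mice and from mice with floxed receptor genes of transforming growth factor-β (TGF-β). The gene group consists of 34 genes among 32287 genes in the deposited matrices. They were chosen by symbol, with earlier results of these data known. By role they fall into 15 chaperones and folding enzymes, 3 sensors and factors of the XBP1 and ATF6 branches, 4 genes of ER-associated degradation, 5 genes of the PERK and ATF4 branch, and 7 genes of the translocon and the signal peptidase. All 34 were found by symbol, and all 34 passed the filter on low counts. Ddit3 stands in 2 rows of the matrices, and the second row, an overlapping gene model, held 0 UMIs in the 4 libraries.

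Segments of ascending aorta and arch were taken from C57BL/6J mice at an age of 12 weeks and digested in the cold, and single, viable cells positive for GFP were sorted. The 2 control libraries (genotype GFPiSMC, called WT) came from mice with Myh11-CreERT2, a tamoxifen-inducible recombinase made in smooth muscle, and the mT/mG reporter, which switches from tdTomato to GFP after recombination. The 2 KO libraries (genotype Tgfbr1/2iSMCKO) came from mice with the same Cre and reporter and with floxed alleles of Tgfbr1 and Tgfbr2, the type I and type II receptors of TGF-β. Both genotypes received tamoxifen for 5 days, in a course of 1 mg daily from 4 weeks or of 2 mg daily from 11 weeks, and the course of each library is not in the labels. The title of the series places the comparison in a question about TGF-β, production of extracellular matrix and dissection of the aorta. Since only GFP-positive cells were sorted, a cell in which Cre cut the reporter may still keep a floxed receptor allele. Each library is labelled as cells of individual segments, with no number of mice, so p-values measure the spread between these libraries, which may in part be technical.

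Secreted proteins enter the ER through the Sec61 channel, lose their signal peptide to the signal peptidase, and are folded by chaperones such as BiP (encoded by Hspa5), by lectin chaperones and by disulfide isomerases. When unfolded protein builds up, the sensors IRE1 (Ern1), ATF6 and PERK (Eif2ak3) start the unfolded protein response: IRE1 splices Xbp1 mRNA, ATF6 is cut to a transcription factor, and PERK slows translation while raising ATF4. Smooth muscle cells of the aortic wall secrete collagens and elastic fibre proteins, which pass through this machinery.

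XBP1 and ATF6 act on chaperone genes through a known promoter element, the ER stress response element (ERSE), with the letters CCAAT and CCACG on either side of 9 free bases. A shorter form, ERSE-II, has the letters ATTGG and CCACG with 1 free base between them. The sites that a search of both strands found in the promoters of the group are shown because these promoters belong to 8 of the 15 chaperones and 2 of the 4 degradation genes whose levels are described below. Promoter sequences of 29 of the 34 genes were matched in the RefSeq table for GRCm38.p6, from 250 bases before to 50 bases after the start of transcription. Capitals mark the letters fixed by the motif, lower case marks the free spacer, each site is written 5′ to 3′ along the strand that carries the motif, and the coordinates are those of GRCm38.p6.
Hspa5, chr2:34772025-34772043: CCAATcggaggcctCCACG
Hsp90b1, chr10:86705638-86705656: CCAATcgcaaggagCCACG
Hsp90b1, chr10:86705533-86705551: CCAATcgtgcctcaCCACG
Calr, chr8:84847075-84847093: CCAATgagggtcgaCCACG
Canx, chr11:50325800-50325818: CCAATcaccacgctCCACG
Creld2, chr15:88819520-88819538: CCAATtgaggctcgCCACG
Dnajc3, chr14:118937827-118937845: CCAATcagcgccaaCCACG
Pdia6, chr12:17266491-17266509: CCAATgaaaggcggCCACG
Syvn1, chr19:6046532-6046550: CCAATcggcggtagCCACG
Herpud1 (ERSE-II), chr8:94386377-94386387: ATTGGGCCACG
Dnajb11 (ERSE-II), chr16:22857852-22857862: ATTGGCCCACG

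ERSE was found in the promoters of 8 of the 29 genes and in 39 of the 32851 promoters of the table, or 0.119%. ERSE-II was found in 2 of the 29 genes and in 0.0365% of the promoters. By the RefSeq starts, the site of Hspa5 began 65 bases before the transcription start, the sites of the 8 ERSE genes began between 44 and 212 bases before it, and the site of Dnajb11 began 7 bases after it. The second site of Hsp90b1 and the sites of Calr and Creld2 lay on the strand opposite to the gene. The shared 3′ letters CCACG are part of both motifs, and alone they were found in 32.8% of all promoters. The core of the XBP1 element UPRE (TGACGTGG, which holds CCACG on the other strand) was in 0.676% of the promoters and in 0 of the 29. The amino acid response element bound by ATF4 (CARE, TGATGNAA) was in 3.97% of the promoters and in Herpud1 and Trib3. A match of letters is a description of the sequence and shows no binding.

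The promoters of Canx, Dnajc3 and Herpud1 are given over the 250 bases before the start, since they show an ERSE on the gene's own strand in the lectin chaperone Canx and the co-chaperone Dnajc3, and the short ERSE-II beside a CARE in Herpud1. Capitals mark the motif letters, and each line reads along the gene's strand. Canx (minus strand) covers chr11:50325674-50325923, Dnajc3 (plus strand) chr14:118937682-118937931, and Herpud1 (plus strand) chr8:94386179-94386428. In Herpud1 the CARE reads in reverse, at chr8:94386317-94386324.
Canx: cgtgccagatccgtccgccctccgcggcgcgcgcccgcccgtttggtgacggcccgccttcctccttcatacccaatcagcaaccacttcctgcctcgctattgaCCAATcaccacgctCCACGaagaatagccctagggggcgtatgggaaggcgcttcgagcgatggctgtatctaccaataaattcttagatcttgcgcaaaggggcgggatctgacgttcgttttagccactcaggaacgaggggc
Dnajc3: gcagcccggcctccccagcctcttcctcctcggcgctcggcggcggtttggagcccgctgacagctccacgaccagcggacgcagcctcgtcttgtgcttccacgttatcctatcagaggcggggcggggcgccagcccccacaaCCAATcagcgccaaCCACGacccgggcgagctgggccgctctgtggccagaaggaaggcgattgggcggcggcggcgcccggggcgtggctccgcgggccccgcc
Herpud1: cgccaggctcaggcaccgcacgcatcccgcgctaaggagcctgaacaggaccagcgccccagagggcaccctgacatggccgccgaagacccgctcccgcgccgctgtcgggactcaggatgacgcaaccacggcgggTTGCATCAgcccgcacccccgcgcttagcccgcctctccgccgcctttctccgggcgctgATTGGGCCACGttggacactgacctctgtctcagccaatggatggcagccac

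The kept cells gave 35255748 and 49723949 UMIs in WT 1 and WT 2, and 59203071 and 50605349 UMIs in KO 1 and KO 2, from 2429 to 4252 cells per library with a median of 13898 to 15383 UMIs per cell. Levels are given as CPM, a gene's UMIs scaled to the total of its library, and a run of 4 values follows the order WT 1, WT 2, KO 1, KO 2. The values of Tgfbr1 were 80.8, 82.3, 73.3 and 76.1 CPM (log2 of KO over WT -0.13, SE 0.06, adjusted p = 0.203), and those of Tgfbr2 were 51.6, 45.1, 46.5 and 47.3 CPM (log2 -0.04, SE 0.08, adjusted p = 0.752). A 3′ tag can lie outside a deleted exon, so these values check neither label. The 7 smooth muscle markers summed to 44310.4, 46360.5, 50759.3 and 48325.9 CPM, higher in both KO libraries. Endothelial markers, 13 genes, reached 70.5, 74.4, 102 and 89.2 CPM as a sum, with 4, 3, 0 and 0 markers at 0 (Cdh5, Tek and Emcn at 0 in both WT libraries). Plvap was higher in both KO libraries (14.2, 17.0, 51.4 and 39.9 CPM), and so were Vwf, Ptprb, Egfl7, Tie1, Kdr and Cldn5. Erg (27.2, 28.1, 15.4 and 16.8 CPM) and Pecam1 (14.2, 17.5, 12.7 and 11.9 CPM) were lower in both, while Esam overlapped. The 14 macrophage and leukocyte markers summed to 2.16, 4.67, 13.9 and 3.38 CPM, with 6, 6, 1 and 4 of them at 0. The 12 fibroblast and mesenchymal markers summed to 537 and 544 CPM in WT and to 596 CPM in each KO library, of which Gsn took 510, 518, 545 and 518 CPM. The other 11 summed to 26.9, 26.2, 51.4 and 78.5 CPM, higher in both KO libraries. Higher in both KO libraries were Dcn (10.8, 8.87, 23.5 and 36.0 CPM), Lum (1.19, 0.885, 10.8 and 18.9 CPM) and Dpt (0.255, 0.040, 1.44 and 2.33 CPM). Pdgfra, Cd34 and Ly6a were higher there too. Lower in both KO libraries were Smoc2 (5.33, 5.05, 2.11 and 2.98 CPM), Clec3b (0.454, 0.442, 0.084 and 0.415 CPM) and Dpep1, while Pi16 and Scara5 overlapped between genotypes. The part of these markers in the results was not tested. The 8 Schwann cell and erythroid markers summed to between 3.29 and 4.91 CPM. Without the cells that hold at least 2 UMIs of the endothelial, leukocyte or Schwann and erythroid lists, 20 of the 34 ER genes fell, against 21 with them. Over all genes, 1511 of 13754 fell without these cells and 1611 of 14474 with them. This filter left 1725, 2229, 2692 and 2404 cells and did not use the fibroblast and mesenchymal list. Barcodes shared by more than 1 library numbered 23 of 14696.

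ER chaperone and unfolded protein response genes were lower in the KO libraries. Of the 34 genes, 21 fell, 0 rose and 13 did not pass the test (edgeR's quasi-likelihood test, Benjamini-Hochberg adjusted p under 0.05 over 14474 genes). Among all genes tested, 11.1% fell and 9.17% rose, 20.3% being called in either direction, and of the genes that average 20 CPM or more 15.3% fell and 9.3% rose. Both KO libraries lay below both WT libraries for 26 of the 34 genes, against 32.3% of all genes, and above them for 0 of the 34, against 31.3%. The median log2 difference was -0.39 over the 34 genes and -0.00 over all genes tested. The 34 genes were chosen with earlier results of these data known, so these comparisons with all genes describe the list and test nothing. In bulk sums of this kind, fewer cells of a kind and less RNA per cell cannot be told apart.

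The 34 genes together took 4766 and 4927 CPM in the WT libraries and 3902 and 3538 CPM in the KO libraries. The KO mean of 3720 ± 257 CPM (SD, n = 2) was 76.7% of the WT mean of 4847 ± 114 CPM (SD, n = 2). The KO level relative to WT differed between roles. Chaperones and folding enzymes summed to 3308, 3468, 2615 and 2285 CPM, with KO at 72.3% of WT, while the translocon and signal peptidase genes summed to 886, 920, 868 and 844 CPM, with KO at 94.7% of WT. The sums carry no test.

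**Figure D1:**
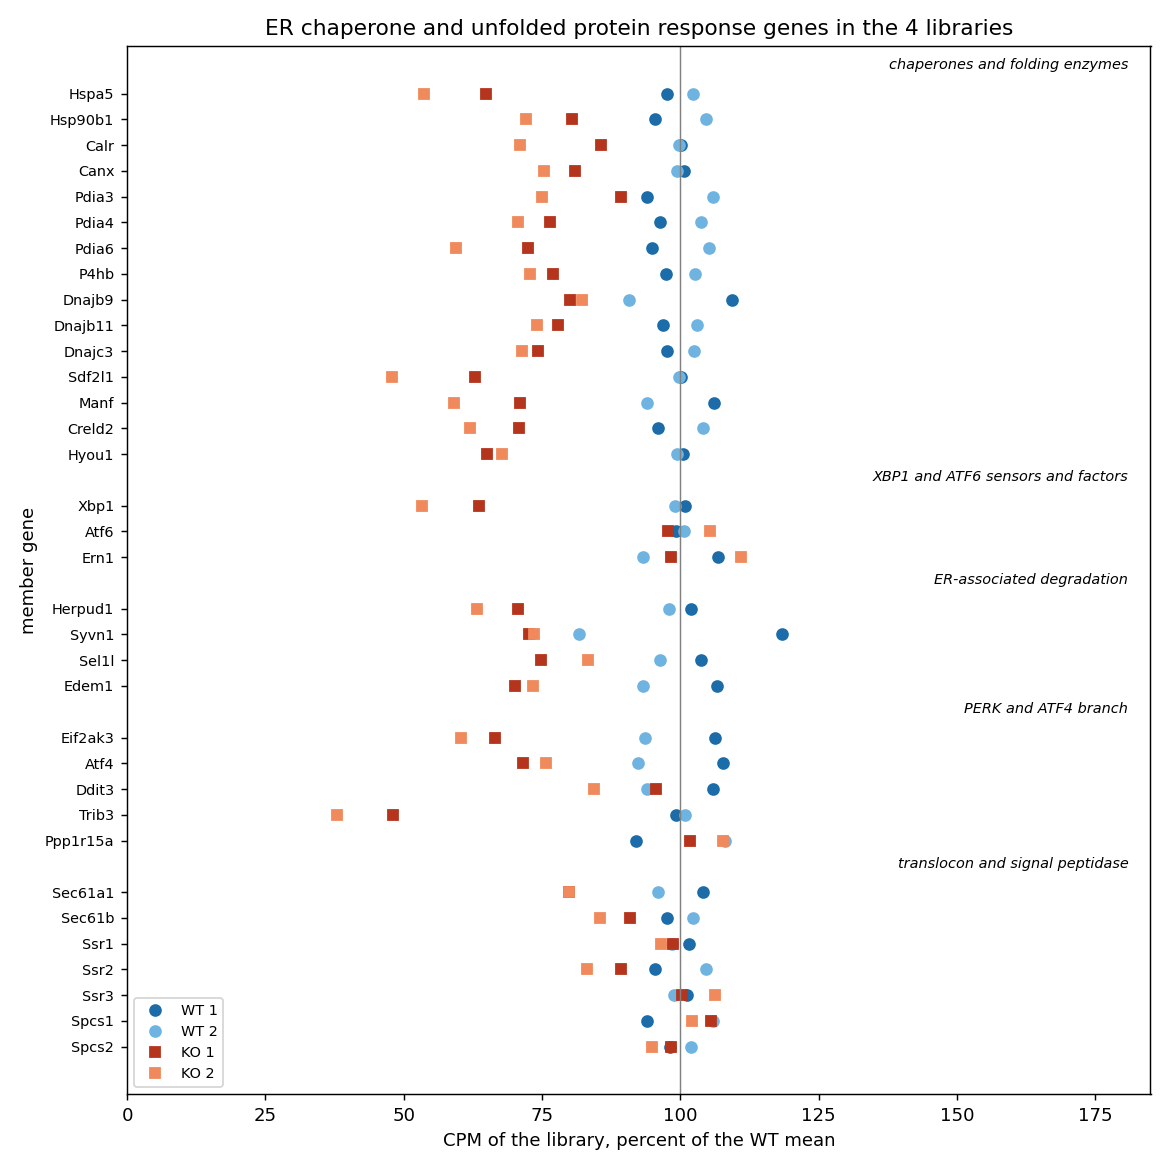
CPM of each of the 34 genes in each library, as a percentage of the mean of the 2 WT libraries (horizontal axis), with genes grouped by role on the vertical axis. The KO points of the 15 chaperones and folding enzymes all lie left of both WT points, while those of Atf6, Ern1, Ddit3, Ppp1r15a, Ssr1, Ssr3, Spcs1 and Spcs2 overlap the WT points.

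Hspa5 encodes BiP, the Hsp70 chaperone of the ER that also holds the 3 stress sensors inactive. Its level was 639 CPM in WT 1 and 670 CPM in WT 2, and in KO it was 425 (KO 1) and 351 CPM (KO 2). Both KO libraries were below both WT libraries, and KO 2 was the lower of them. The log2 difference was -0.75 (SE 0.09, adjusted p = 0.00102), and the KO mean was 59.3% of the WT mean. Hspa5 lies on chromosome 2 from 34771970 to 34777547 on the plus strand (GENCODE M21, GRCm38). This gene model starts before the RefSeq start used for the promoter, so the ERSE lies inside it.

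Genes of proteins that work with BiP fell too. Sdf2l1, part of a BiP complex that keeps unfolded protein soluble, had 16.0 CPM in each WT library and 10.1 and 7.66 CPM in KO (log2 -0.85, SE 0.13, adjusted p = 0.00310), the largest fall among the chaperones. Manf, a secreted BiP cofactor that protects cells under ER stress, went from 190 and 169 CPM to 128 and 106 CPM (log2 -0.62, SE 0.10, adjusted p = 0.00400). Hyou1, the large Hsp70 relative that exchanges the nucleotide of BiP, went from 33.4 and 33.1 CPM to 21.6 and 22.6 CPM (log2 -0.59, SE 0.07, adjusted p = 0.00109). The KO libraries did not overlap the WT libraries for any of these 3 genes.

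Among the J-domain partners of BiP, Dnajc3, also an inhibitor of PERK, had 174, 183, 133 and 128 CPM (log2 -0.46, SE 0.06, adjusted p = 0.00205). Dnajb11 had 54.8, 58.2, 44.0 and 41.8 CPM (log2 -0.40, SE 0.07, adjusted p = 0.00656). Dnajb9, a target of XBP1 that represses IRE1, had 38.0, 31.5, 27.8 and 28.6 CPM and did not pass (log2 -0.30, 95% interval -0.52 to -0.08, adjusted p = 0.0648). Its KO values were below both WT values, and WT 2 was closer to KO than to WT 1. Without WT 2 Dnajb9 passed (log2 -0.43, adjusted p = 0.0187).

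The Hsp90 family chaperone Hsp90b1 (GRP94) had 669, 733, 564 and 506 CPM (log2 -0.39, SE 0.08, adjusted p = 0.00878). The lectin chaperones hold glycoproteins while they fold. Canx, the membrane-bound lectin, had 254, 251, 204 and 190 CPM (log2 -0.36, SE 0.06, adjusted p = 0.00657). Calr, the soluble lectin, had 395, 394, 338 and 281 CPM (log2 -0.35, SE 0.09, adjusted p = 0.0271). The KO libraries lay below the WT libraries in all 3 genes, and in each KO 2 was the lowest. The call of Calr was lost without WT 1 (adjusted p = 0.0824), without WT 2 (adjusted p = 0.0687) and without KO 2 (log2 -0.22, adjusted p = 0.0649).

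The disulfide isomerases make and rearrange disulfide bonds. Pdia6 had 180, 199, 137 and 113 CPM (log2 -0.60, SE 0.10, adjusted p = 0.00483). Pdia4 had 96.4, 104, 76.6 and 70.8 CPM (log2 -0.44, SE 0.07, adjusted p = 0.00443). P4hb, which is both a disulfide isomerase and the beta subunit of the prolyl hydroxylase of collagen, had 157, 166, 124 and 118 CPM (log2 -0.42, SE 0.07, adjusted p = 0.00369). In each of these 3 genes KO 2 was the lowest library and both WT libraries were above both KO libraries. Pdia3, the isomerase that works with the lectin chaperones, had 376, 424, 357 and 300.0 CPM and did not pass (log2 -0.28, 95% interval -0.50 to -0.06, adjusted p = 0.0729), although both KO values were below both WT values. It passed without KO 1 (log2 -0.42, adjusted p = 0.0101). Creld2, an ER-resident protein induced by ER stress, had 34.5, 37.4, 25.5 and 22.3 CPM (log2 -0.59, SE 0.09, adjusted p = 0.00304).

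In all, 13 of the 15 chaperones and folding enzymes fell and 0 rose, against 11.1% and 9.17% of all genes. Their median log2 difference was -0.44. Both KO libraries lay below both WT libraries for all 15, against 32.3% of all genes. KO 2 lay below KO 1 for 13 of the 15. The share of all genes with KO 2 below KO 1 was not computed.

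Of the sensors and factors, Xbp1 fell. Xbp1 encodes the transcription factor that IRE1 activates by splicing, and it had 149, 147, 94.1 and 79.0 CPM (log2 -0.77, SE 0.09, adjusted p = 0.000793). The KO mean was 58.4% of the WT mean, and the groups did not overlap. Counts at the 3′ end do not tell spliced from unspliced Xbp1. The sensor genes Atf6 (28.6, 29.0, 28.2 and 30.4 CPM) and Ern1 (8.68, 7.58, 8.0 and 9.02 CPM) overlapped between genotypes. Their log2 differences were 0.02 for Atf6 (95% interval -0.15 to 0.19, adjusted p = 0.870) and 0.07 for Ern1 (95% interval -0.21 to 0.34, adjusted p = 0.723).

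**Figure D2:**
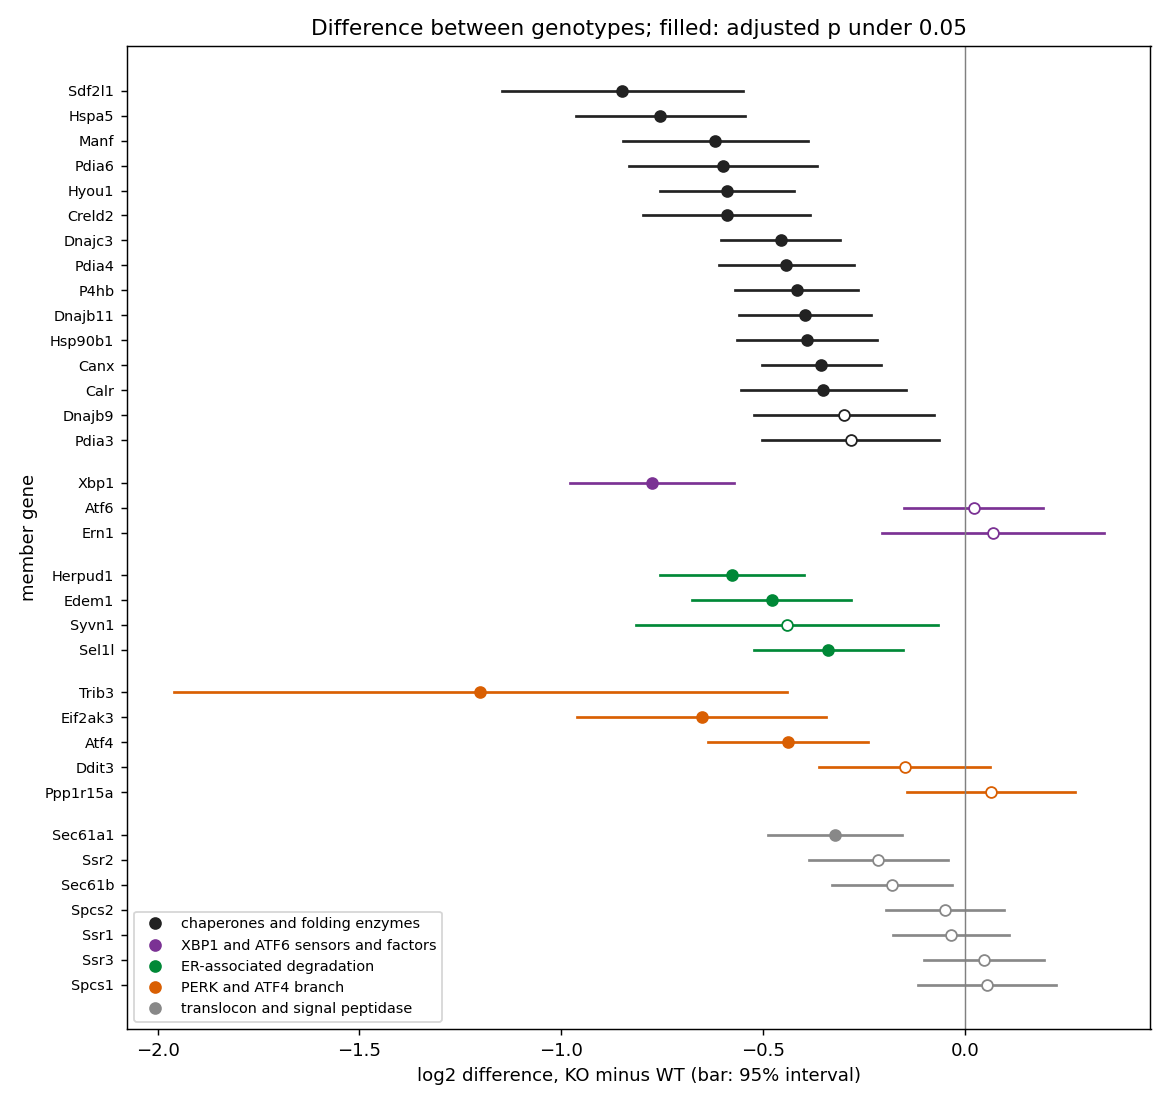
Log2 difference of KO minus WT (horizontal axis) with its 95% interval for each of the 34 genes, grouped by role on the vertical axis, with filled points for an adjusted p under 0.05. The largest falls are Trib3 at -1.20 and Sdf2l1 at -0.85, and 13 genes have open points, among them Atf6, Ern1, Ddit3 and Ppp1r15a near 0.

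ER-associated degradation returns misfolded protein to the cytosol for the proteasome. Herpud1, a membrane protein of the degradation complex, had 72.7, 69.9, 50.4 and 45.1 CPM (log2 -0.58, SE 0.08, adjusted p = 0.00165). Edem1, a mannosidase-like lectin that marks glycoproteins for degradation, had 40.8, 35.7, 26.8 and 28.1 CPM (log2 -0.48, SE 0.09, adjusted p = 0.00637). In both genes the KO libraries were below both WT libraries. Sel1l, the adaptor of the ubiquitin ligase HRD1, had 66.8, 62.0, 48.2 and 53.7 CPM (log2 -0.34, SE 0.08, adjusted p = 0.0210). Its call was lost without WT 1 (adjusted p = 0.107) and without KO 1 (adjusted p = 0.0854). Syvn1, which encodes HRD1 itself, had 14.8, 10.2, 9.11 and 9.24 CPM and did not pass (log2 -0.44, 95% interval -0.81 to -0.07, adjusted p = 0.0949). WT 1 stood apart from the other 3 libraries, and without WT 2 the gene passed (log2 -0.70, adjusted p = 0.00421).

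The PERK and ATF4 branch was divided. Atf4, whose protein switches on amino acid supply and stress genes, had 102, 87.1, 67.6 and 71.6 CPM (log2 -0.44, SE 0.09, adjusted p = 0.00950). Eif2ak3, which encodes PERK, had 7.19, 6.34, 4.50 and 4.08 CPM (log2 -0.65, SE 0.13, adjusted p = 0.0116), and its call was lost without WT 1 (log2 -0.56, adjusted p = 0.0537). Both genes had no overlap between genotypes.

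Trib3, a pseudokinase gene that ATF4 and CHOP switch on, was thinly covered, with 23, 33, 19 and 13 UMIs in WT 1, WT 2, KO 1 and KO 2, or 0.659, 0.670, 0.320 and 0.253 CPM. It passed with a log2 difference of -1.20 (SE 0.33, adjusted p = 0.0366). The call was lost without each library in turn, where adjusted p lay between 0.10 and 0.172. Ddit3, which encodes the stress factor CHOP, had 43.7, 38.7, 39.4 and 34.7 CPM (log2 -0.15, 95% interval -0.36 to 0.06, adjusted p = 0.290), and its groups overlapped. Ppp1r15a, which encodes GADD34, the factor that restarts translation after PERK, had 37.8, 44.4, 41.8 and 44.2 CPM (log2 0.06, 95% interval -0.14 to 0.27, adjusted p = 0.662).

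Of the 7 genes of entry into the ER, 1 fell and 0 rose, against 11.1% and 9.17% of all genes. Sec61a1, the channel's pore subunit, had 53.3 and 49.1 CPM in WT and 40.9 CPM in each KO library (log2 -0.32, SE 0.07, adjusted p = 0.0165), and the call was lost without WT 1 (adjusted p = 0.106). Sec61b, another channel subunit, had 247, 259, 229.7 and 216 CPM (log2 -0.18, 95% interval -0.33 to -0.03, adjusted p = 0.0864). Sec61b lies on chromosome 4, 59.7 kb from Tgfbr1, a floxed gene, and the part of that position in its value was not tested. The translocon-associated subunits Ssr1, Ssr2 and Ssr3 and the signal peptidase subunits Spcs1 and Spcs2 did not pass, with log2 differences between -0.21 (Ssr2) and 0.05 (Spcs1). For Ssr2 both KO libraries were below both WT libraries (77.8, 85.2, 72.8 and 67.7 CPM), while the other 4 overlapped.

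The wider ER pathway was read from lists of other genes. Over all genes tested, 11.1% fell and 9.17% rose. Of 35 other ER folding genes, 15 fell and 2 rose (Selenom, log2 0.38, and Dnajc1, log2 0.28), with a median of -0.17. Fkbp9, an ER prolyl isomerase, had 99.7, 94.1, 57.1 and 53.3 CPM (log2 -0.81, SE 0.07, adjusted p = 0.000216). Txndc5 (log2 -0.64) and Pdia5 (log2 -0.71), both thioredoxin-domain enzymes, fell as well. Of 24 other degradation genes, 3 fell and 0 rose, a share near the 11.1% of all genes. They were Selenos (log2 -0.28), Edem3 (log2 -0.33) and Selenok (log2 -0.21). All 3 calls were lost without WT 1 (adjusted p = 0.0503, 0.189 and 0.0977) and without WT 2 (adjusted p = 0.189, 0.0570 and 0.231). The call was also lost without KO 1 for Edem3 (adjusted p = 0.187) and Selenok (adjusted p = 0.0985), and without KO 2 for Selenos (adjusted p = 0.146) and Selenok (adjusted p = 0.105). Of 37 other genes of translocation and glycosylation, 11 fell and 0 rose, among them Magt1 (log2 -0.68) and Stt3b (log2 -0.70), subunits of the oligosaccharyl transferase, and Tram2 (log2 -0.64).

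Of 37 genes of transport from the ER to the Golgi, 17 fell, 0 rose and 20 did not pass, against 11.1% of all genes that fell, with a median of -0.24, and their sum in KO was 85.3% of that in WT. Sec24d, a cargo-binding coat subunit of COPII vesicles, had 83.9, 75.4, 47.9 and 49.3 CPM (log2 -0.71, SE 0.08, adjusted p = 0.000538). The cargo receptors Surf4 (log2 -0.44) and Ergic1 (log2 -0.61) fell. Of 19 other sensors and regulators, 4 fell and 0 rose, against 11.1% and 9.17% of all genes. Creb3l2, a stress sensor of the ATF6 kind, which is cut in the Golgi and drives secretory genes, had 157, 170, 83.8 and 81.2 CPM (log2 -0.99, SE 0.07, adjusted p = 7.0e-05). The others were Nfya (log2 -0.48), a subunit of the factor that binds the CCAAT letters of the ERSE, Mbtps1 (log2 -0.34; adjusted p = 0.0639 without WT 1 and 0.0545 without KO 1), the protease that cuts ATF6, and Bbc3 (log2 -0.75), a cell death gene.

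Of 39 other PERK and ATF4 genes tested, 8 fell and 4 rose, against 11.1% and 9.17% of all genes, with a median of -0.09. Nupr1, a stress-induced transcriptional regulator, fell from 789 and 818 CPM to 72.1 and 71.8 CPM (log2 -3.48, SE 0.06, adjusted p = 5.6e-08). Jdp2, a bZIP repressor, fell (log2 -0.72). Gdf15, a secreted stress hormone and a target of ATF4 and CHOP, rose from 5.36 and 4.81 CPM to 14.9 and 11.6 CPM (log2 1.38, SE 0.14, adjusted p = 0.000500), as did Eif2ak2 (log2 0.44), Slc3a2 (log2 0.40) and Eif4ebp1 (log2 0.27). In cells of like matrix load, defined below, Gdf15 did not pass (log2 0.12, adjusted p = 0.846). Of 35 chaperones of the cytosol and mitochondria, 2 fell (Hsph1, log2 -0.89, and Hspa8, log2 -0.40), against 11.1% of all genes. In this list 3 rose (Hspb8, log2 0.29, Trap1, log2 0.30, and Clpp, log2 0.23), near the 9.17% of all genes. Their sum was 11079, 10770, 10524 and 12545 CPM. The call was lost without WT 1 for Hspa8 (adjusted p = 0.0710) and Hspb8 (adjusted p = 0.0763), and without WT 2 for Hspb8 (adjusted p = 0.0645). No test of the difference between these chaperones and those of the ER was made.

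Beside these falls, 14 immediate early genes, a list added after the data were seen, summed to 3753 and 3896 CPM in WT and to 2778 and 2320 CPM in KO. Of the 14, 9 fell, against 11.1% of all genes. Such genes respond to signalling and to dissociation of tissue, and their part in the levels of the ER genes was not tested. The genes of collagens and elastic fibres, the cargo of the pathway, summed to 13311 and 13802 CPM in WT and to 5756 and 5660 CPM in KO, 42.1% of WT.

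The promoter elements shown above can be set beside the differences. Of the 8 genes with an ERSE, 7 fell and Syvn1 did not pass, with a median log2 difference of -0.45. Both genes with an ERSE-II, Herpud1 and Dnajb11, fell, and of 10 other genes with it 7 were tested and 1, Nucb1, fell. Of the 29 other genes in the table with an ERSE, 8 were tested, and 1 of those, Spats2l, fell. Over all genes tested, 11.1% fell, and of the 34 members 21 fell. Xbp1, Sdf2l1 and Pdia4 fell without either motif in the bases searched (P4hb, Sel1l, Edem1, Atf4, Eif2ak3 and Trib3 likewise). Ddit3, Dnajb9, Ern1, Pdia3, Ppp1r15a, Sec61b, Spcs1, Spcs2, Ssr1 and Ssr3 also had neither motif and did not pass. The difference between genes with and without a motif was not tested.

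Next, the levels were read across single cells. The matrix load of a cell is the share of its UMIs that comes from 35 collagen and elastic fibre genes. Cells with at least 5000 other UMIs (2230, 3100, 4102 and 3351 cells in WT 1, WT 2, KO 1 and KO 2, leaving out 199, 165, 150 and 171) were thinned to 5000 of those UMIs, ordered by load, and divided into 5 equal groups (quintiles) within each library. CPM here is scaled to the UMIs outside the 35 genes. The median load of the lowest and highest quintile went from 0.861% to 1.82% in WT 1 and from 0.862% to 1.96% in WT 2, and from 0.372% to 0.777% in KO 1 and from 0.352% to 0.813% in KO 2. Cells of a library share its preparation, and median depth differed little between quintiles, from 14445 to 15911 UMIs in WT 1 and from 14837 to 16152 UMIs in WT 2.

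Cells with more matrix transcripts held more ER chaperone transcripts in each library. From the lowest to the highest quintile the summed chaperones went from 2897 to 4071 CPM in WT 1 and from 2875 to 4488 CPM in WT 2. In KO 1 they went from 2317 to 3197 CPM and in KO 2 from 2032 to 3073 CPM. On the log2 scale these differences were 0.49, 0.64, 0.46 and 0.60. The median load of the highest quintile in each KO library was below that of the lowest WT quintiles, with overlapping ranges, and its chaperone sum was above theirs.

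**Figure D3:**
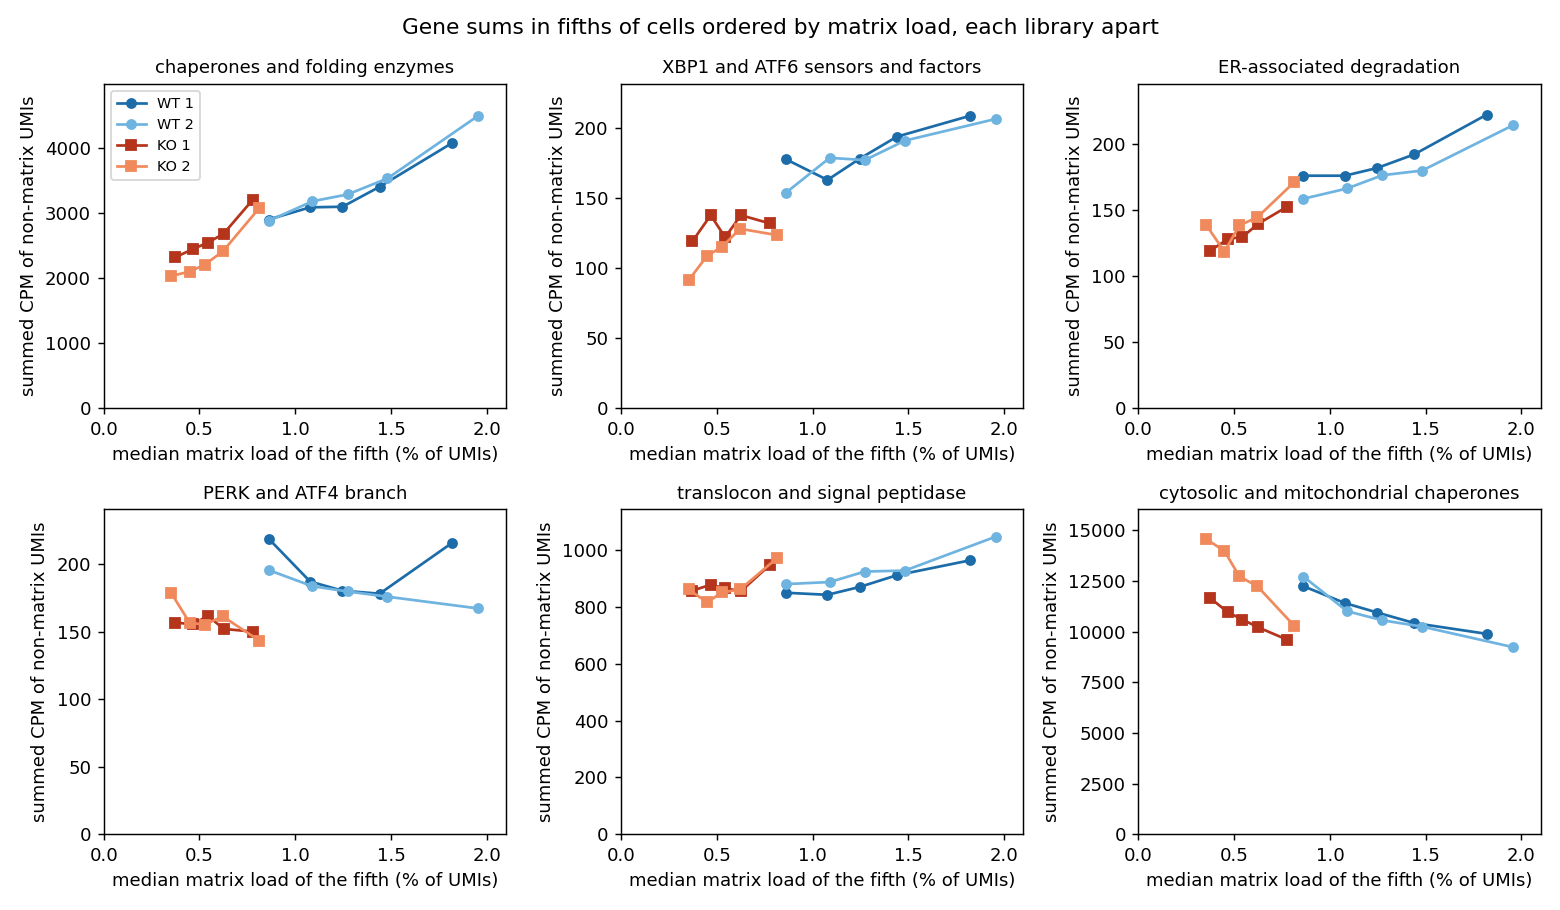
Summed CPM of gene groups (vertical axes, from 0) in quintiles of cells ordered by matrix load, against the median load of the quintile as a percentage of UMIs (horizontal axes), with a line for each library. The chaperone lines rise in all 4 libraries, from 2897 to 4071 CPM in WT 1, and the KO lines lie at loads under 0.9%.

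Hspa5 followed the sum, from 510 to 851 CPM in WT 1, from 532 to 925 CPM in WT 2, from 374 to 520 CPM in KO 1 and from 306 to 470 CPM in KO 2. Hyou1 went from 26.9 to 49.8 CPM in WT 1 and from 23.9 to 44.2 CPM in WT 2. ERAD genes as a sum were higher in the highest quintile by 0.34 and 0.43 (log2) in WT 1 and WT 2, sensors and factors by 0.23 and 0.42, and the translocon and signal peptidase by 0.18 and 0.25. The PERK and ATF4 branch as a sum had log2 differences of -0.02, -0.23, -0.06 and -0.32 in library order, with no common direction among its genes, and the sum turned to 0.10 in KO 1 with 3000 UMIs per cell and to 0.05 in KO 2 with the wider matrix list. Eif2ak3 was higher in the highest quintile in the 4 libraries, by 0.46, 0.52, 0.59 and 1.67 (log2). This gene was thinly covered, with 16, 16, 14 and 6 UMIs in the lowest quintile and 22, 23, 21 and 19 in the highest. Ddit3 was higher in the highest quintile in both WT libraries (0.28 and 0.29) and lower in both KO libraries (-0.20 and -0.14). Atf4 went from 122 to 109 CPM in WT 1 and from 99.0 to 79.7 CPM in WT 2, and Ppp1r15a from 39.5 to 35.4 CPM and from 52.9 to 33.9 CPM. Herpud1 had no common direction in WT (74.9 to 68.6 CPM in WT 1, 70.0 to 82.9 CPM in WT 2).

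Of the 29 genes with at least 20 CPM, 24 were higher in the highest than in the lowest quintile in both WT libraries, against 49.6% of 5622 genes. Atf4 and Ppp1r15a were lower in both, against 23.1% of genes. Other sums moved across the same quintiles. ER-to-Golgi genes were higher in the highest quintile by 0.28 and 0.36 (log2) in WT 1 and WT 2, while cytosolic and mitochondrial chaperones were at -0.31 and -0.46 (-0.12 and -0.19 with the wider matrix list), smooth muscle markers at -0.30 and -0.43, and immediate early genes at -0.50 and -0.73. The part of these in the chaperone gradient was not tested.

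Spearman's rank correlation across cells between load and the chaperone sum was 0.27, 0.36, 0.25 and 0.30 in WT 1, WT 2, KO 1 and KO 2, over the 2230, 3100, 4102 and 3351 cells above. For single genes the values were small at this depth, with a median over the 29 genes of 0.04, 0.07, 0.04 and 0.06, against 0.01, 0.01, 0.01 and 0.02 over all genes of at least 20 CPM. With Hspa5, across the cells of WT 1 and WT 2, the rank correlation was 0.23 and 0.23 for Hsp90b1, 0.19 and 0.20 for Calr and 0.13 and 0.17 for Xbp1, and it was -0.02 and 0.02 for Atf4. These are descriptions of cells that share a library, with no test.

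Since matrix load differed between genotypes and went with the chaperones, WT and KO were also compared in cells with a load between 0.7% and 1.0%, a range chosen after the data were seen. It held 440, 578, 661 and 534 cells, with median loads of 0.892%, 0.881%, 0.781% and 0.797%, and the collagen and elastic fibre genes still summed in KO to 82.0% of WT. These cells were selected by transcripts that themselves differ between genotypes, so they are low-load cells of WT and high-load cells of KO. Trib3 did not pass the count filter there. Of the other 33 genes, 8 fell and 2 rose, where 8.56% of 12094 genes fell and 8.49% rose, and the median log2 difference was -0.15.

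Of the 20 genes that fell in all cells and were tested in this range, 7 fell here, and 17 had a smaller difference. These genes were picked by their call in all cells, and the range held 15.2% to 18.1% of the kept cells of a library. The part of this choice and of the lower depth in these counts was not tested. The same counts were not made over all genes that fell. Hspa5 had 567, 570, 481 and 399.9 CPM (log2 -0.37, SE 0.10, adjusted p = 0.0338). Hsp90b1 had 617, 640, 667 and 614 CPM (log2 0.03, 95% interval -0.16 to 0.21, adjusted p = 0.866), with overlapping groups. The chaperone sum was 3075, 3083, 2962 and 2641 CPM, with KO at 91.0% of WT.

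Falls in this range were also found for Herpud1 (78.4, 74.1, 44.9 and 42.1 CPM, log2 -0.81, SE 0.09, adjusted p = 0.000726) and Atf4 (109, 98.0, 67.0 and 60.3 CPM, log2 -0.70, SE 0.10, adjusted p = 0.00185). In both genes the KO libraries lay below the WT libraries. Xbp1 had 145, 140, 103 and 81.0 CPM (log2 -0.63, SE 0.11, adjusted p = 0.00622), and Dnajc3 (log2 -0.51), Manf (log2 -0.56) and Creld2 (log2 -0.38) fell as well. Ppp1r15a, which did not pass over all cells, fell here (46.0, 51.7, 37.1 and 36.4 CPM, log2 -0.41, SE 0.10, adjusted p = 0.0262). The subunits Ssr1 (log2 0.32, adjusted p = 0.0387) and Ssr3 (log2 0.30, adjusted p = 0.0349) rose. Whether the differences in this range and over all cells differ from each other was not tested.

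**Figure D4:**
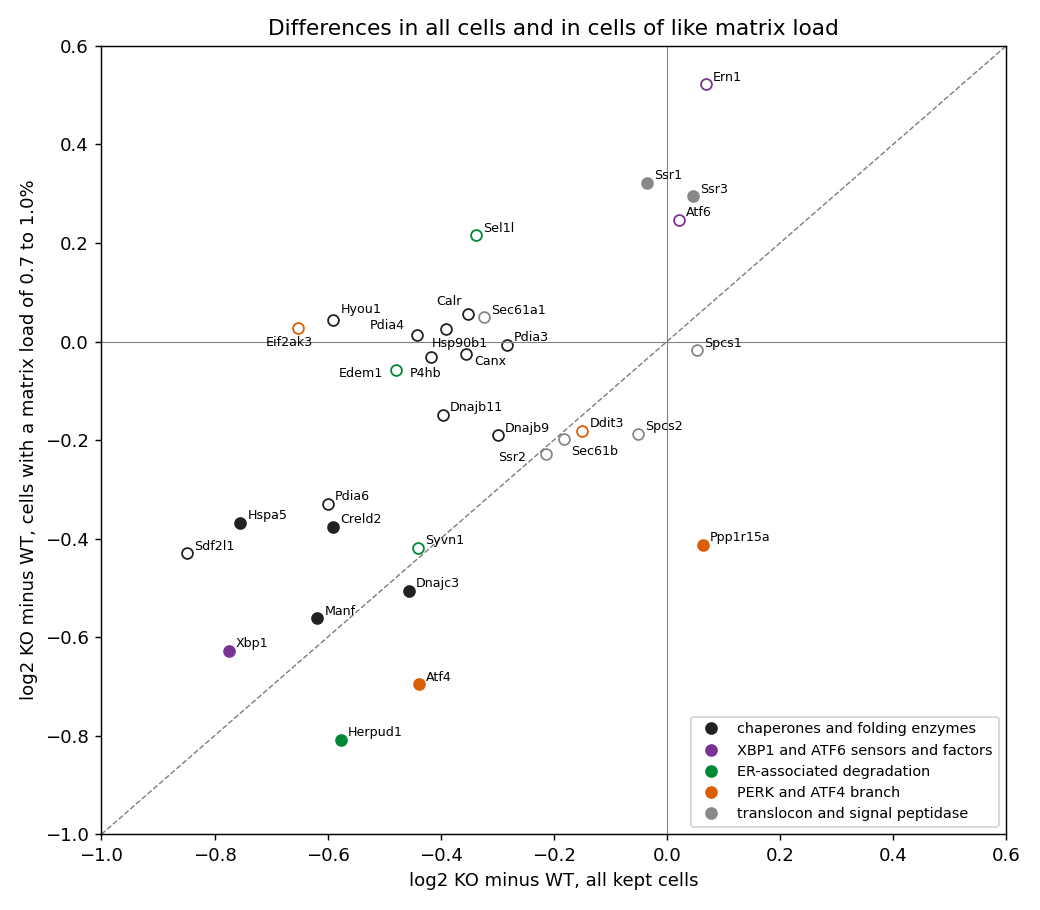
Log2 difference of KO minus WT for each gene over all kept cells (horizontal axis) and in cells with a matrix load of 0.7 to 1.0% (vertical axis), for the 33 genes tested in both. Hsp90b1 moves from -0.39 to 0.03, while Herpud1 goes from -0.58 to -0.81 and Atf4 from -0.44 to -0.70.

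Some gene models overlap others, and reads shared between them cannot be told apart. Manf overlaps Rbm15b and Hsp90b1 overlaps Gm15344 on the same strand. Manf, Herpud1, Pdia3, Pdia6, Dnajb11, Syvn1, Ddit3, Ppp1r15a, Sec61a1, Spcs1 and Spcs2 overlap models on the other strand, and use of strand in counting is not given in the sources used here. Hspa5, Xbp1, Calr, Canx and Atf4 overlap none.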

How the data were processed

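Single-cell RNA sequencing with Chromium Next GEM 3′ chemistry v3.1 gave 4 libraries, 2 of WT and 2 of KO cells. The values are raw UMI counts, as the authors deposited them; per the file headers, Cell Ranger 5.0.1 wrote the matrices. The build mm10 and Seurat 4.0 are named in the submitters' processing notes. The matrices hold 2769, 3565, 4504 and 3858 barcodes in WT 1, WT 2, KO 1 and KO 2. The labels state 2597, 3420, 4376 and 3707 cells before a filter, and 2151, 3000, 4031 and 3246 after it, by criteria that the sources used here do not give.

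The 13468 cells kept had 1000 UMIs or more, 500 genes or more and a mitochondrial share of 10% or less. Doublets were not removed, and an alternative left out the 5% of cells with the most UMIs. Counts were summed per library, scaled with TMM factors (0.99 to 1.02) and compared with edgeR 4.0.16 in R 4.3.3 (glmQLFTest, filterByExpr, Benjamini-Hochberg over 14474 genes, threshold 0.05), with the SE taken as the log2 difference divided by the square root of F. Each adjusted p in the text is from this test unless another is named. CPM is on the TMM-adjusted scale except for marker sums and sums by load. The biological coefficient of variation was 7.84%. With 2 libraries per genotype, precision rests on the spread between libraries.

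The scripts were tested on simulated data. Sequences were read from the RefSeq table, positions from GENCODE M21. Named genes are the 34 members and the 3 genes of smallest p in each pathway list (other ER folding, other degradation, other PERK and ATF4, other sensors and regulators, other translocation and glycosylation, ER to Golgi, and cytosolic and mitochondrial chaperones). Members of counts of 5 or fewer were also named. The members and lists were chosen with earlier results of these data known. Alternatives used limma 3.58.1, DESeq2 1.42.0, other cell filters, other low-count filters and scalings, a replicate block and each library left out.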

Additional observations from a re-analysis of the deposited data

How the results depend on the processing

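Of 572 member results under alternatives, 531 kept their side of the threshold, counting uncalled values that changed sign. With the same sign, 19 lost the call and 13 gained it. The other 9, all in cells of like matrix load, changed sign. They were called either there or over all cells, never in both. Hspa5, Dnajc3, Manf, Creld2, Xbp1, Herpud1 and Atf4 kept their calls in all 17 alternatives. Members lower in KO numbered 21 with DESeq2 and with limma-voom, 25 without a low-count filter and 22 in stricter cells. Over all genes, 1348 of 14342 were lower with DESeq2 and 1579 of 14474 with limma-voom. Without a low-count filter 2113 of 21103 were lower, and in stricter cells 1498 of 14238. Leaving out each library gave 16 to 21 members lower and 0 higher, 1039 to 1297 genes lower and 805 to 1161 higher over all genes (1611 and 1327 with all libraries, both lowest without WT 1), and a chaperone sum of 67.4% to 77.2% of WT. Among genes of at least 20 CPM, 918 fell and 625 rose, since fewer genes were tested. With the replicate block, 24 members and 1751 genes were lower and 1523 higher. Libraries of the same number did not deviate together over genes (r = -0.003 over 5743 genes). The labels pair no libraries, and a batch or date shared by number was not tested. In cells of like matrix load, added after the data were seen, 8 members fell and 2 rose, 1035 genes fell, and the chaperone sum was 91.0% of WT. The log2 difference there was 0.026 for Hsp90b1, 0.056 for Calr, 0.014 for Pdia4, 0.044 for Hyou1, 0.22 for Sel1l, 0.028 for Eif2ak3, -0.41 for Ppp1r15a, 0.049 for Sec61a1, 0.32 for Ssr1 and 0.23 for Edem3, each of the other sign than over all cells, and the cause was not tested. The chaperone difference between the highest and lowest load group of WT cells was 0.57 (log2) with 5 groups of cells and 0.41 with 3, which hold a narrower contrast of load. Trib3, with 13 to 33 UMIs per library, marks the limit of depth. In like-load cells the calls of Txndc5, Pdia5, Tram2, Surf4, Ergic1, Nfya, Mbtps1, Jdp2, Hspb8 and Gdf15 were lost too. The alternatives were run for the members and for the 3 genes of smallest p in each list.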
